A study of Mus musculus with 26 samples.

Results

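The liver removes ammonia either as urea or as glutamine, and the genes described here serve both routes. They are 9 genes of the urea cycle and of ammonia handling, namely Cps1, Otc, Ass1, Asl, Arg1, Nags, Gls2, Glul and Rhbg. They were chosen by name, as the probes that carry 1 of these symbols, with the condition that the probe be detected on at least 4 of the 26 arrays (detection p under 0.01). On the array 13 of 25697 probes carried 1 of the 9 symbols, and 11 of them, for 8 genes, passed that condition, as did 11001 probes in all. The Nags probe was detected on 3 arrays, 2 of them of B6 mice and 1 of a LEP-ICVN mouse, and was not tested. A second Otc probe was detected only on 2 VEH-ICV arrays and was not tested either. Gls2 carried no symbol in the array annotation, and its 2 probes were recognised because their mean equalled the study's own Gls2 row.

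Liver RNA came from 26 mice, with 1 array per mouse, and the mice of a group are numbered from 1 in the order of their label numbers. Of the 6 groups, those of 4 mice were female ob/ob mice, which make no functional leptin, on the C57BL6 background, treated at 15 weeks of age through osmotic pumps for 12 days: VEH-SQ (saline under the skin), LEP-SQ (10 µg leptin a day under the skin), VEH-ICV (artificial cerebrospinal fluid into the brain ventricle), LEP-ICV (1.5 µg leptin a day into the ventricle) and LEP-ICVN. The LEP-ICVN mice were assigned to the same brain leptin as LEP-ICV but lost no weight, and the position of their cannulas was in doubt, so that these 2 groups were separated by an outcome. The remaining group was 6 B6 mice, C57BL6 mice taken as a baseline, whose sex, age and any infusion the sources used here do not give. The routes differed in dose as well as in site, and each compares with its own vehicle.

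In the urea cycle, ammonia enters the mitochondria of periportal hepatocytes as carbamoyl phosphate, made by Cps1, which needs the N-acetylglutamate that Nags supplies. Otc joins carbamoyl phosphate to ornithine, Ass1 and Asl add the second nitrogen from aspartate in the cytosol, and Arg1 splits arginine into urea and ornithine. Gls2, the liver glutaminase, frees ammonia from glutamine next to Cps1. The ammonia that passes this zone is caught by the last hepatocytes around the central vein, where Rhbg carries it across the membrane and Glul, glutamine synthetase, fixes it in glutamine.

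Start site sequence could be matched for 4 of the 9 genes, Otc, Ass1, Glul and Nags, in RefSeq (GRCm38.p6), each as 300 bases from 250 before to 50 after the start. Those of Otc, Ass1 and Glul are printed because Otc and Ass1 fell together with leptin given into the brain whereas Glul did not pass the test there. Otc lies on chrX:10252055-10252354, Ass1 on chr2:31470020-31470319 and Glul on chr1:153899679-153899978, all on the plus strand. Capitals mark matches, on either strand, to 1 of 7 short motifs searched (the TATA box string TATAAA, the CAAT box string CCAAT, the GC box string GGGCGG, CAAAGTCCA for nuclear receptors such as Hnf4a, TTGCGCAA for Cebp factors, TGACGTCA for Creb and TGTTCT for the glucocorticoid receptor).
Otc: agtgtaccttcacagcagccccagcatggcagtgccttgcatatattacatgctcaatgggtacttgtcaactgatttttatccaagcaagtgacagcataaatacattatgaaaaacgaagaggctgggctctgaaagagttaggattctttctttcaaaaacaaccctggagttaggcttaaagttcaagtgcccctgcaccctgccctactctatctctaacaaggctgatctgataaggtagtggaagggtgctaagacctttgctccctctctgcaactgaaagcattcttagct
Ass1: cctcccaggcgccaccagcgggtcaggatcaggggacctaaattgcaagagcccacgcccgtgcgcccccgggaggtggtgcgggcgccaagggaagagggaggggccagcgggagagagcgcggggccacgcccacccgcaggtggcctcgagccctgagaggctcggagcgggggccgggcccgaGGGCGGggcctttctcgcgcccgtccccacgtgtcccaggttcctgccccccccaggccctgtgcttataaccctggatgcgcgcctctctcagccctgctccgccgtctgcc
Glul: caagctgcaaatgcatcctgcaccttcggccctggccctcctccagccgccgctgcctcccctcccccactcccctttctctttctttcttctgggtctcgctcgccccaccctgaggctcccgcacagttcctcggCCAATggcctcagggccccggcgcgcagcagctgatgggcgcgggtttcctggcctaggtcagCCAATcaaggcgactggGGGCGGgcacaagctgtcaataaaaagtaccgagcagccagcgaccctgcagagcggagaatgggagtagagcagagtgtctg
None of the 7 strings occurred in the Otc window, which had a GC content of 44.3%, against a median of 52.7% over the 32851 promoters of the table. The Ass1 window, at 74.0% GC, held 1 GGGCGG, a string found in 35.7% of all promoters. The Glul window, at 64.3% GC, held 1 GGGCGG and 2 CCAAT, the latter found in 37.4% of all promoters. Otc and Ass1 thus shared none of these matches. The remaining strings occurred in 13.6% (TATAAA), 0.475% (CAAAGTCCA), 0.183% (TTGCGCAA), 1.79% (TGACGTCA) and 19% (TGTTCT) of promoters.

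The arrays fell into 2 classes of background that cut across some groups and coincided with others. The median intensity of undetected probes was 99.3 to 113.8 on 12 arrays and 152.7 to 186.1 on 14, with 6786 to 9705 and 8092 to 11117 detected probes. Both vehicle groups lay wholly in the low class, and B6 and LEP-SQ wholly in the high class, so in LEP-SQ against VEH-SQ and in ob/ob against B6 class and group cannot be told apart. Only LEP-ICV (mice 1 and 2 low, mice 3 and 4 high) and LEP-ICVN (mice 2 and 4 low, mice 1 and 3 high) held both. A class term in the model is therefore estimated within these 2 groups alone and carried over to the others. With class as a term in the model, 36.5% of the 11001 probes differed between the classes. Of the 8 genes, Cps1 was 2.88 higher on the log2 scale in the high class (adjusted p = 6.5e-04, limma), Asl 2.42 higher (adjusted p = 0.015) and Glul lower, at -1.93 (adjusted p = 7.4e-04). The class differences of Otc (0.01), Ass1 (0.45), Arg1 (-0.15), Gls2 (0.14) and Rhbg (-0.48) did not pass the test. Each change below is therefore given, where it matters, without and with this term.

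Levels are log2 intensities after background correction and quantile normalization, and they compare mice for 1 probe, not 1 gene with another. Where a gene had 2 tested probes the brighter is given unless the other is named. In whole liver, fewer cells of a type and less RNA per cell cannot be told apart. Otc, Ass1, Arg1 and Gls2 were among those that the study picked on these same arrays as falling with weight loss, so their direction is not independent evidence. Of the related genes and markers below, Aass, Gpt, Sds, Prodh, Slc38a4, Ctnnb1, C1qb, Gpnmb and Mmp12 were also picked there for following weight loss. So were Timd2, Acss2, Dcxr and Gstt3, named below as genes most alike to members. The same limit holds for them.

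**Figure D1:**
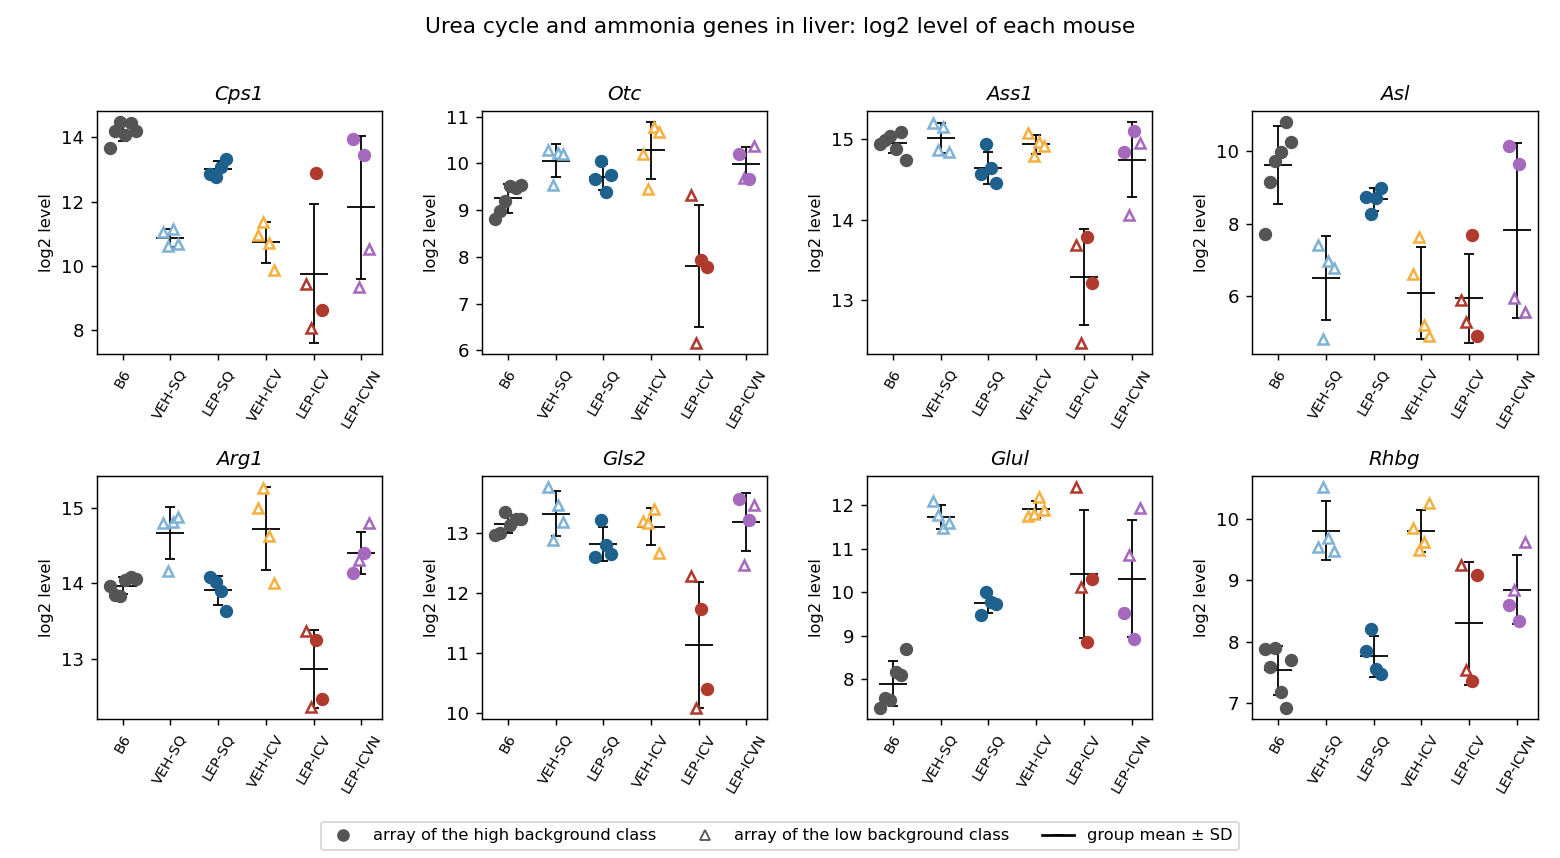
Log2 level of each of 8 genes (y axis) in every mouse by group (x axis); filled circles are arrays of the high and open triangles arrays of the low background class, and bars are the group mean ± SD (n = 6 for B6, n = 4 otherwise). The lowest group means of Otc, Ass1, Arg1 and Gls2 were those of LEP-ICV, while Cps1, Asl and Glul split by class within LEP-ICVN.

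With leptin given into the brain 5 of the 8 genes fell and none rose. Against VEH-ICV, Otc fell 5.56-fold, Gls2 3.96-fold, Arg1 3.65-fold, Ass1 3.14-fold and Rhbg 2.84-fold in LEP-ICV, and the median change of the 8 genes was -1.58 on the log2 scale, against 0.01 over all tested genes. Over all tested probes 23.4% were called in this comparison (adjusted p under 0.05, limma over 11001 probes). With the class term the same 5 genes passed and Cps1 was added, so that 6 of 8 fell while 11.4% of all probes were called. Each of the 5 genes kept its call when any 1 of the 8 mice was left out.

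Otc, ornithine transcarbamylase, was at 9.33, 6.16, 7.94 and 7.78 in LEP-ICV mice 1, 2, 3 and 4. It was at 10.21, 9.45, 10.78 and 10.68 in VEH-ICV mice 1, 2, 3 and 4. The highest LEP-ICV mouse thus stayed just under the lowest VEH-ICV mouse. The log2 change was -2.48 (SE 0.41, adjusted p = 2.7e-04), with the class term -2.48 (adjusted p = 0.0012). LEP-ICV mouse 2 had an intensity of 207.5 for Otc before correction, the lowest of the 26, but the probe was detected on every array.

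Ass1, argininosuccinate synthase, was at 13.69, 12.47, 13.79 and 13.22 in those 4 LEP-ICV mice. In VEH-ICV it was at 15.08, 14.80, 14.97 and 14.92. The 2 groups did not overlap, and the other 22 mice of the study were all above the LEP-ICV mice, the lowest being LEP-ICVN mouse 2 at 14.06. The share of all probes that separated mice in this way was not counted, for this or any other gene or comparison. The change was -1.65 (SE 0.24, adjusted p = 5.0e-05), with the class term -1.87 (adjusted p = 3.3e-05).

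Arg1, the arginase of hepatocytes, was at 13.37, 12.36, 13.25 and 12.46 in LEP-ICV. In VEH-ICV it was at 15, 15.27, 14.63 and 14.00. Again the groups did not overlap, and none of the other 22 mice was as low as the highest LEP-ICV mouse. The change was -1.87 (SE 0.26, adjusted p = 2.6e-05), with the class term -1.79 (adjusted p = 2.4e-04).

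Gls2 was at 12.29, 10.09, 11.73 and 10.40 in LEP-ICV. It was at 13.20, 13.18, 13.40 and 12.67 in VEH-ICV. LEP-ICV mice 2 and 4 were the lowest pair and came from different background classes. The change was -1.98 (SE 0.35, adjusted p = 3.7e-04), with the class term -2.06 (adjusted p = 0.0013), and the second Gls2 probe fell by 2.12 (adjusted p = 1.4e-04), its LEP-ICV levels of 11.58, 9.41, 11.25 and 10.39 again below every other mouse.

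Rhbg, the ammonia carrier of perivenous hepatocytes, was more mixed. It was at 9.25, 7.53, 7.35 and 9.09 in LEP-ICV and at 9.85, 9.49, 9.63 and 10.26 in VEH-ICV. Mice 1 and 4 lay just under the lowest VEH-ICV mouse, while mice 2 and 3 lay within the range of B6. The intensities before correction overlapped, at 381.1 to 487.7 in LEP-ICV and 455.6 to 777.3 in VEH-ICV. The change was -1.50 (SE 0.38, adjusted p = 0.0066) and with the class term -1.27 (adjusted p = 0.047), and the call was lost when the model held these 8 arrays alone (adjusted p = 0.077). Rhbg ran against the number of detected probes over the 26 arrays (r = -0.92, and -0.88 after removal of the group means). LEP-ICV mice 2 and 3, the low ones, had 9705 and 11117 detected probes, mice 1 and 4 had 7880 and 8092, and the VEH-ICV mice had 7059 to 7992. The part of this in the fall of Rhbg was not tested. Glul, which sits in the same cells, was at 12.42, 10.11, 8.86 and 10.30 in LEP-ICV against 11.76, 11.79, 12.19 and 11.89 in VEH-ICV. Mouse 1 was above all VEH-ICV mice and the other 3 were below, and the change of -1.49 (SE 0.55) missed the threshold (adjusted p = 0.051). Without mouse 1 it was -2.15 (adjusted p = 0.0019), and with the class term -0.52 (adjusted p = 0.51).

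Cps1, the entry enzyme, was at 9.45, 8.08, 12.89 and 8.64 in LEP-ICV and at 10.95, 11.38, 10.71 and 9.87 in VEH-ICV. Mice 1, 2 and 4 lay below all VEH-ICV mice and mouse 3 lay above them, although mice 3 and 4 were both of the high class. The pooled change was -0.96 (SE 0.81, adjusted p = 0.38), with the class term -2.40 (SE 0.64, adjusted p = 0.015), and over arrays of the low class alone -1.96 (adjusted p = 0.043). The other Cps1 probe gave -1.95 (adjusted p = 0.12) and -3.15 (adjusted p = 0.025) without and with the term. Asl, argininosuccinate lyase, was detected on 1 of 4 arrays in each of the 2 groups. Its change of -0.14 (95% confidence interval -1.96 to 1.68, and 0.25 with median scaling) rests mostly on intensities that were not above background.

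The low-class arrays allow the same comparison at 1 background, 2 LEP-ICV against 4 VEH-ICV mice. There Ass1 changed by -1.86 (adjusted p = 0.015) and Arg1 by -1.86 (adjusted p = 0.027). Otc at -2.53 (adjusted p = 0.057), Gls2 at -1.92 (adjusted p = 0.056) and Rhbg at -1.42 (adjusted p = 0.096) had sizes like those of the whole comparison and missed the threshold with these numbers of mice.

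**Figure D2:**
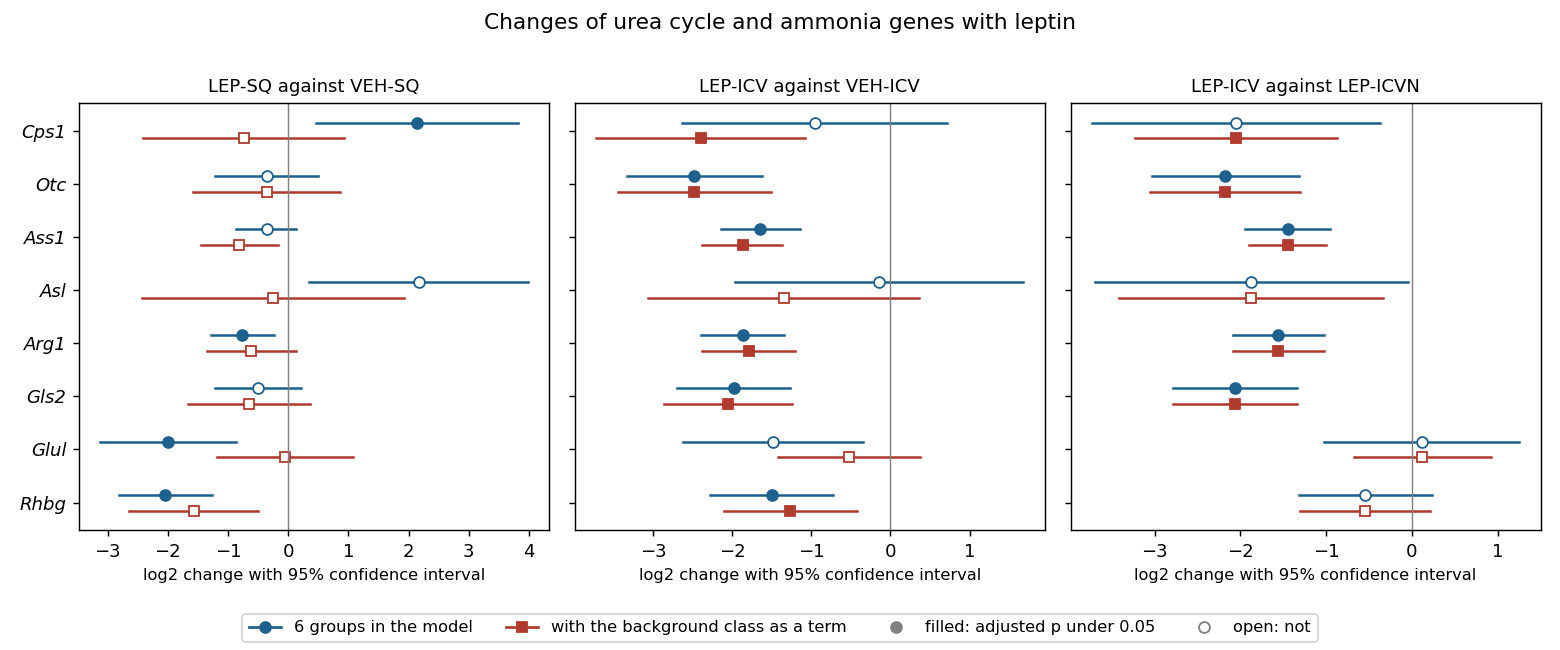
Log2 change of the 8 genes (x axis, with 95% confidence interval) in LEP-SQ against VEH-SQ, LEP-ICV against VEH-ICV and LEP-ICV against LEP-ICVN; circles are the model of 6 groups, squares the same with the background class as a term, and filled symbols have an adjusted p under 0.05. Otc, Ass1, Arg1 and Gls2 changed by -1.45 to -2.48 in the 2 brain comparisons with either model, whereas no change of LEP-SQ passed with the term. In LEP-ICV against LEP-ICVN the term cannot move a change, because each group held 2 arrays of each class.

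The changes with leptin given under the skin could not be separated from the background of the arrays. Against VEH-SQ 4 of the 8 genes passed, Rhbg, Glul and Arg1 downwards and Cps1 upwards, where 41.9% of all tested probes were called, so that the members' share was near the background. With the class term 0 of 8 passed, as did 0.245% of all probes. The median change of the 8 genes was -0.44, against -0.04 over all tested genes.

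Rhbg was at 7.84, 8.20, 7.55 and 7.47 in LEP-SQ mice 1, 2, 3 and 4. In VEH-SQ mice 1, 2, 3 and 4 it was at 9.54, 10.52, 9.69 and 9.48. The groups did not overlap, yet the intensities before correction did (381.8 to 458.9 against 424.1 to 860.9). LEP-SQ mice 1, 3 and 4 lay within the range of B6, whose arrays were also of the high class, and mouse 2 lay above it. How many of all probes separated LEP-SQ from VEH-SQ was not counted. The change was -2.04 (SE 0.38, adjusted p = 0.0013), with the class term -1.57 (adjusted p = 0.32). Glul was at 9.47, 10, 9.78 and 9.72 in LEP-SQ and at 12.09, 11.77, 11.48 and 11.59 in VEH-SQ, again without overlap, and its change of -1.99 (SE 0.55, adjusted p = 0.0086) became -0.06 (adjusted p = 0.99) with the term.

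Cps1 was at 12.87, 12.76, 13.09 and 13.34 in LEP-SQ and at 11.06, 10.61, 11.16 and 10.67 in VEH-SQ. All LEP-SQ mice were higher, by 2.14 on average (SE 0.81, adjusted p = 0.038), but the call was lost when any 1 of the 8 mice was left out (adjusted p from 0.051 to 0.085) and the class term turned the change to -0.74 (adjusted p = 0.87). Asl, which was detected on 4 of 4 LEP-SQ and 3 of 4 VEH-SQ arrays, was at 8.74, 8.26, 8.70 and 8.99 against 7.43, 4.83, 6.97 and 6.79. It too was higher in every LEP-SQ mouse, by 2.17 (SE 0.88, adjusted p = 0.051), and with the term the change was -0.26.

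Arg1 was at 14.08, 14.02, 13.90 and 13.64 in LEP-SQ and at 14.81, 14.16, 14.82 and 14.88 in VEH-SQ, a change of -0.76 (SE 0.26, adjusted p = 0.023). The call was lost without VEH-SQ mouse 3 (adjusted p = 0.053), VEH-SQ mouse 4 (adjusted p = 0.061) or LEP-SQ mouse 4 (adjusted p = 0.071), and with the class term, at -0.61 (adjusted p = 0.73). Otc at -0.35 (95% confidence interval -1.21 to 0.50, and 0.42 with median scaling), Ass1 at -0.36 (-0.86 to 0.13) and Gls2 at -0.51 (-1.22 to 0.21) were not called. VEH-SQ mouse 2, with 6786 detected probes, was the lowest of its group for Otc, Arg1 and Asl, and without it the SQ changes of Otc, Ass1 and Gls2 still did not pass.

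Whether the 2 routes differed was tested as the difference between their changes, brain minus skin. None of the 8 genes passed (limma), where 1.47% of all tested probes were called. An unadjusted p under 0.05 was found for 5 of the 8 genes and for 1693 of the 11001 probes. Ass1 came nearest, with a difference of -1.29 (SE 0.34, adjusted p = 0.055), followed by Otc at -2.12 (SE 0.59, adjusted p = 0.065), Arg1 at -1.11 (adjusted p = 0.13) and Gls2 at -1.48 (adjusted p = 0.14), the second Gls2 probe being at -1.73 (adjusted p = 0.064). All 4 leaned towards the larger fall with brain leptin. The calls turned on single mice. Without LEP-ICV mouse 1, Otc, Ass1, Arg1 and Gls2 passed (adjusted p from 0.0033 to 0.0499), without LEP-ICV mouse 3, Cps1, Otc, Ass1 and Gls2 did (adjusted p from 0.015 to 0.0498), and without VEH-ICV mouse 2 Otc alone did (adjusted p = 0.046). In these fits, in the same order, 3.43%, 5.14% and 1.09% of all tested probes were called.

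Set directly against each other, the 2 leptin groups differed in 6 of the 8 genes, all lower in LEP-ICV, where 14.9% of all tested probes were called. Otc was 3.75-fold lower (adjusted p = 0.0046), Gls2 3.24-fold (adjusted p = 0.0031), Ass1 2.57-fold (adjusted p = 0.0010) and Arg1 2.07-fold (adjusted p = 0.0095). With the class term these 4 genes passed, and Cps1 (-3.25, with the term -1.81) and Asl (-2.72, with the term -1.51) no longer did. The Asl call was also lost without any 1 of the 8 mice other than LEP-ICV mouse 3 (adjusted p from 0.057 to 0.13), and that of Cps1 without LEP-ICV mouse 2 (adjusted p = 0.055). Over arrays of the high class alone, 2 LEP-ICV against 4 LEP-SQ mice, Otc changed by -1.85 (adjusted p = 0.0016), Gls2 by -1.76 (adjusted p = 0.0053), Ass1 by -1.14 (adjusted p = 0.0071) and Arg1 by -1.06 (adjusted p = 0.015). With only the arrays of these 2 groups in the model, 2 of the 8 genes passed, where 3.39% of all tested probes were called. This comparison holds dose, site and infused fluid together, and Rhbg (0.54) and Glul (0.68) were not called in it.

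The LEP-ICVN mice overlapped the VEH-ICV mice for the same 4 genes. No member was called against VEH-ICV (limma, 2 with an unadjusted p under 0.05), where 0% of all tested probes were called and 2935 had an unadjusted p under 0.05. Otc was at 10.20, 9.68, 9.67 and 10.38 in LEP-ICVN mice 1, 2, 3 and 4. Ass1 was at 14.85, 14.06, 15.11 and 14.96, Arg1 at 14.14, 14.31, 14.41 and 14.80 and Gls2 at 13.57, 12.48, 13.22 and 13.48. Their changes against VEH-ICV lay between -0.31 and 0.08. By contrast Cps1, at 13.95, 9.34, 13.44 and 10.54, and Asl, at 10.13, 5.96, 9.65 and 5.56, were high in the 2 mice of the high class and low in the other 2. Glul, at 9.52, 10.86, 8.91 and 11.93, and Rhbg, at 8.59, 8.85, 8.34 and 9.63, were the 2 members with an unadjusted p under 0.05, with changes of -1.60 (adjusted p = 0.16) and -0.96 (adjusted p = 0.16). Without LEP-ICVN mouse 4, Asl (2.49, adjusted p = 0.044), Glul (-2.14, adjusted p = 0.024) and Rhbg (-1.22, adjusted p = 0.034) passed. In that fit 24.4% of all tested probes were called, so these calls went with a shift over the whole array.

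LEP-ICV was accordingly lower than LEP-ICVN in 4 of the 8 genes, where 7.24% of all tested probes were called. Otc fell by 2.18 (adjusted p = 0.0015), Gls2 by 2.06 (adjusted p = 4.5e-04), Arg1 by 1.56 (adjusted p = 3.7e-04) and Ass1 by 1.45 (adjusted p = 3.8e-04), and each group here held 2 arrays of each class. With this balance the class term could not move these values and changed only their spread, by which Cps1 was added (-2.05, adjusted p = 0.022). With only the 8 arrays of the 2 groups in the model, none passed (adjusted p from 0.11 to 0.19 for the 4 genes). Glul (0.12, 95% confidence interval -1.02 to 1.25) and Rhbg (-0.55, -1.32 to 0.23) were not called.

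**Figure D3:**
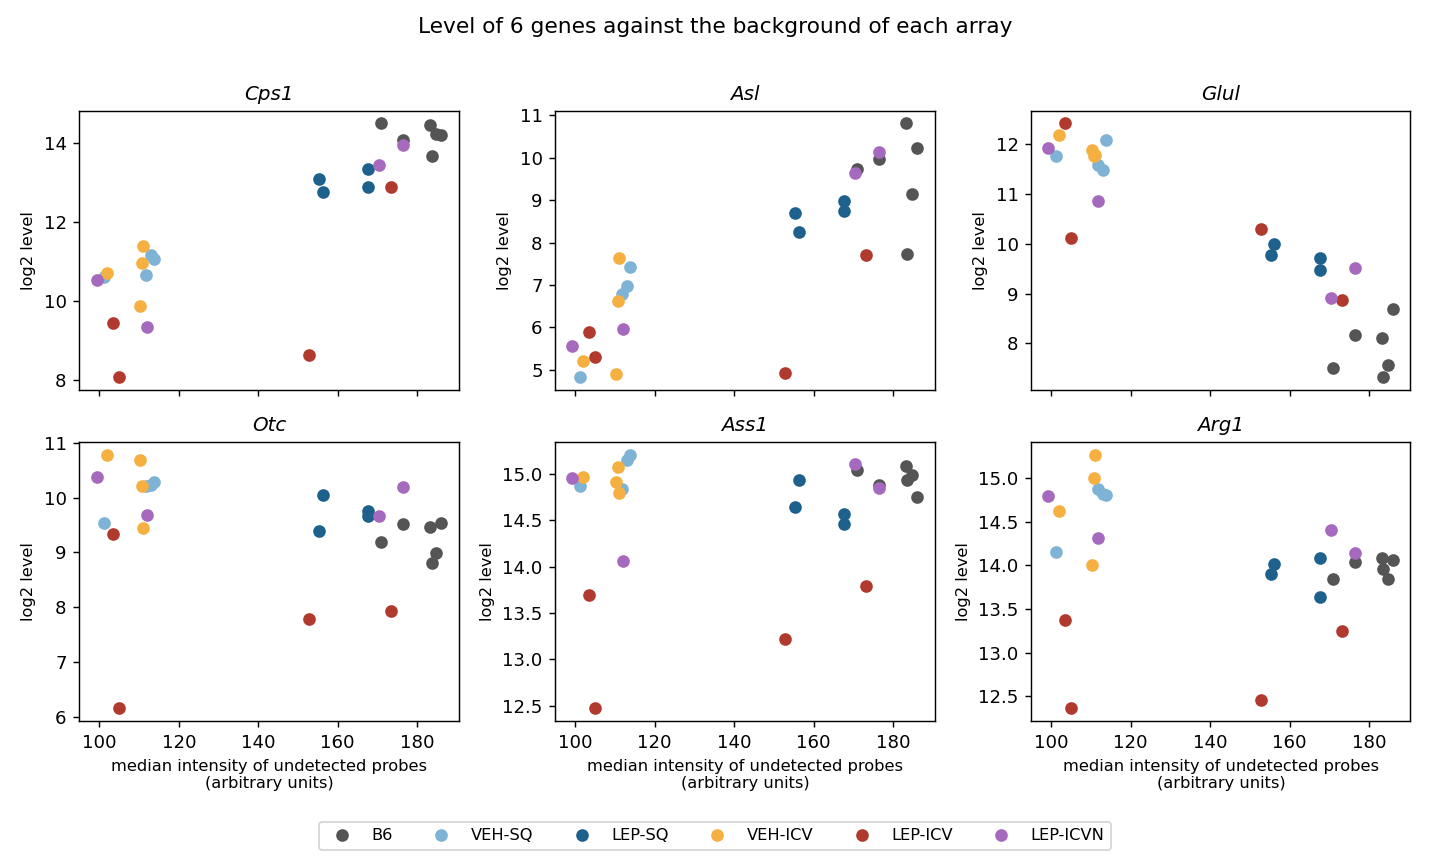
Log2 level of 6 genes (y axis) against the median intensity of undetected probes on the same array (x axis, arbitrary units), 1 point per mouse, coloured by group. Cps1 and Asl rise and Glul falls with the background across the 26 arrays, while the LEP-ICV mice are low for Otc, Ass1 and Arg1 at both ends.

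Without leptin, ob/ob mice had higher levels of Glul and Rhbg, the ammonia capture genes, than B6 mice, on arrays of the other background class. Against 6 B6 mice, 8 vehicle mice had 15.2-fold more Glul and 4.86-fold more Rhbg. Of the 8 members 4 were called upwards and 2 downwards where 68.9% of all tested probes were called, so that the members' share was near the background. With the class term 2 of 8 passed, as did 7.81% of all probes. Glul was at 7.32 to 8.69 in B6 (median 7.83), at 11.48 to 12.09 in VEH-SQ and at 11.76 to 12.19 in VEH-ICV. Rhbg was at 6.91 to 7.89 in B6 (median 7.65), at 9.48 to 10.52 in VEH-SQ and at 9.49 to 10.26 in VEH-ICV. Neither gene overlapped between B6 and vehicle mice, but the share of all probes that did not overlap was not counted. With the class term both changes were smaller but passed, Glul at 2.0 (adjusted p = 0.013, from 3.93) and Rhbg at 1.81 (adjusted p = 0.018, from 2.28). That term was estimated within LEP-ICV and LEP-ICVN alone, so passing with it does not separate class from group here.

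The cycle enzymes went in both directions in this comparison, and none of them passed with the class term. Cps1 was at 13.66 to 14.49 in B6 (median 14.20), all above the highest vehicle mouse at 11.38, and fell by 3.38 in ob/ob (adjusted p = 5.8e-05), with the class term -0.50 (adjusted p = 0.71). Asl was at 7.73 to 10.81 in B6 and its log2 change was -3.31 (adjusted p = 1.7e-04), with the class term -0.88 (adjusted p = 0.60). Otc (0.92, adjusted p = 0.013) and Arg1 (0.72, adjusted p = 0.0023) were higher in ob/ob, with similar values of 0.93 and 0.58 that did not pass with the term, and neither passed with median scaling (0.05 and 0.43). Ass1 (0.03, 95% confidence interval -0.35 to 0.41) and Gls2 (0.06, -0.48 to 0.61) were not called.

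Across the 26 arrays the 8 genes ran in sets. Gls2 ran with Ass1 (Pearson r = 0.95), Otc (0.85) and Arg1 (0.85), Cps1 with Asl (0.92), and Glul with Rhbg (0.85), while Cps1 and Glul ran opposite (-0.77). After each group's mean was removed, r was 0.81 for Gls2 with Ass1, 0.82 for Cps1 with Asl and 0.58 for Glul with Rhbg. These are descriptions over arrays that share a background class: r with the array background was 0.85 for Cps1, 0.83 for Asl, -0.92 for Glul and -0.81 for Rhbg, and between -0.29 and 0.15 for Otc, Ass1, Arg1 and Gls2. Among all other named genes the likeliest patterns over the 26 arrays were Mcee and Timd2 for Otc (0.923 and 0.917), Acss2 and Dcxr for Ass1 (0.925 and 0.914), Gstt3 and Prodh for Arg1 (0.886 and 0.883) and Prodh and Sds for Gls2 (0.933 and 0.924). For Cps1 they were Gnmt and Cbs (0.956 and 0.954), for Asl Shmt1 and Adh5 (0.955 and 0.938), for Glul Grtp1 and Map2k1 (0.980 and 0.974) and for Rhbg Psmb7 and Prrc1 (0.959 and 0.953). After removal of the group means other genes led, Timd2 being the only one in both searches, with Dclk3 and Timd2 (0.832 and 0.826) for Otc, Slc38a3 and Aspscr1 (0.871 and 0.855) for Arg1, Masp1 and Gstz1 (0.803 and 0.776) for Ass1, and Afmid and Sult1d1 (0.820 and 0.805) for Gls2. In the same search Cps1 had Selenbp1 and Zadh2 (0.914 and 0.900), Asl Ahcyl1 and Nkapd1 (0.944 and 0.922), Glul Rbm14 and Impa1 (0.941 and 0.926) and Rhbg Mon1b and Ccdc180 (0.901 and 0.899).

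Of 10 tested enzymes that release or pass on amino acid nitrogen, 6 fell in LEP-ICV against VEH-ICV and 0 rose (median -1.23), where 23.4% of all tested probes were called, and with the class term 5 fell. Got2 (-0.22), Gldc (-0.12), Gpt2 (-0.41) and Glud1 (1.1) were not called. The falls were led by Aass, which starts lysine breakdown, at -2.69 (adjusted p = 7.3e-05), Sds, serine dehydratase, at -2.37 (adjusted p = 7.5e-04), Hal, histidine ammonia-lyase, at -2.23 (adjusted p = 4.4e-04) and Aspg, an asparaginase, at -1.62 (adjusted p = 0.0066, with the class term 0.052). With subcutaneous leptin 4 fell and 1 rose against VEH-SQ, near the 41.9% called over all tested probes, the largest changes being Glud1, glutamate dehydrogenase, at 3.97 (adjusted p = 0.0061), Aass at -2.08, Got1, a transaminase, at -1.69 and Gpt2, another, at -1.62, and with the term none passed. Hal was the enzyme whose routes differed by the test, with a difference of -2.33 (adjusted p = 0.036).

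Among 9 tested carriers and partners of the cycle, 1 fell and 0 rose in LEP-ICV against VEH-ICV, a share below the 23.4% of all tested probes, and 3 fell with the class term, the others being Aldh4a1 at -0.52 (adjusted p = 0.039) and Sirt5 at -0.55 (adjusted p = 0.048). The 1 called without the term was Prodh, proline dehydrogenase, at -2.76 (adjusted p = 1.0e-05), with the class term -2.78, and its routes differed by -1.98 (adjusted p = 0.042, with the term 0.066). With subcutaneous leptin 3 rose against VEH-SQ, a share below the 41.9% of all tested probes, Slc7a2, a carrier of arginine, at 2.09 (adjusted p = 0.0044), Slc25a15, the mitochondrial ornithine carrier, at 1.84 (adjusted p = 0.014) and Aqp9, a channel for water and urea, at 0.49 (adjusted p = 0.019), none of which passed with the term. Of 7 tested glutamine and glutamate transporters 1 fell with brain leptin, Slc38a4 at -1.77 (adjusted p = 0.0036, with the class term -1.05 and 0.031), and 2 with subcutaneous leptin, Slc38a4 at -1.38 and Slc3a2 at -1.27, which the class term turned to 0.07 and 0.08 (adjusted p = 0.98 for each). Both shares were below those of all tested probes, 23.4% and 41.9%. Of 12 tested regulators 1 changed in LEP-ICV, again a share below 23.4%, Ctnnb1, the beta-catenin of the perivenous programme, at 1.0 (adjusted p = 0.0029), and in LEP-SQ 4 rose and 2 fell, near the 41.9% of all tested probes, the largest being Hnf4a at -1.73 (adjusted p = 0.0055), Gcgr, the glucagon receptor, at -1.52 (adjusted p = 0.011), Foxo1 at 1.38 (adjusted p = 0.038) and Cebpa at 1.31 (adjusted p = 0.011), all lost with the term.

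**Figure D4:**
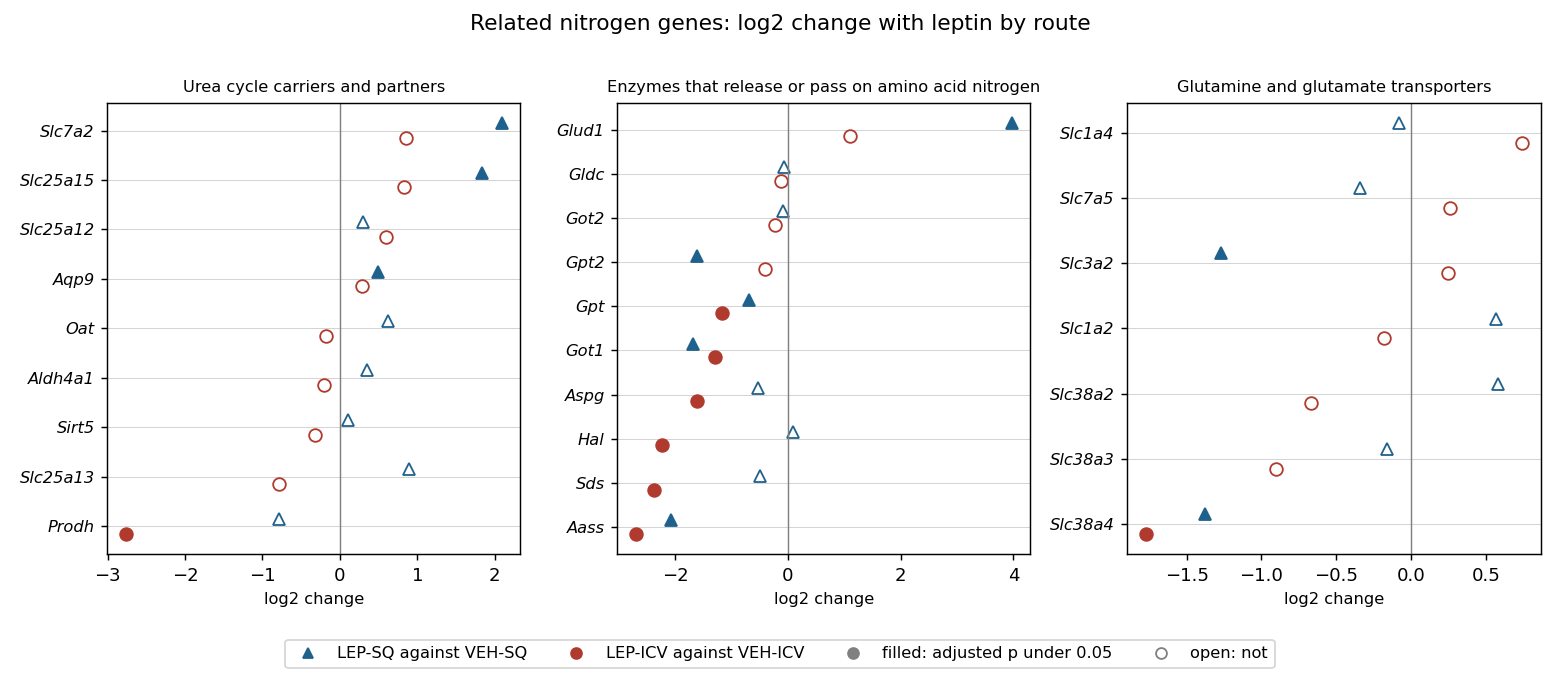
Log2 change (x axis) of the tested genes of 3 related lists in LEP-SQ against VEH-SQ (triangles) and LEP-ICV against VEH-ICV (circles); filled symbols have an adjusted p under 0.05. In the middle panel 6 enzymes fell with brain leptin, and Hal, at -2.23, hardly moved with subcutaneous leptin (0.10).

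Markers of other liver cells moved in the same comparison. In LEP-ICV against VEH-ICV, where 23.4% of all tested probes were called, 7 of 7 tested Kupffer cell markers rose (median 1.69), their summed linear level being 8050 to 12600 in LEP-ICV and 2760 to 4420 in VEH-ICV, and 4 of 5 markers of lipid-laden macrophages rose (5340 to 17000 against 1240 to 2220), Gpnmb at 4.89 and Mmp12 at 4.56. Cd5l had no tested probe. Of 5 tested markers of sinusoidal endothelium 2 rose, Lyve1 at 2.19 (adjusted p = 0.018) and Clec4g at 0.75 (adjusted p = 0.0078), with a summed level of 10700 to 17700 against 8310 to 9630, and neither passed with the class term. Of 5 tested hepatocyte markers (median -1.12) 1 fell, Alb at -2.89 (adjusted p = 0.0025), while Serpina1a at -1.13 (adjusted p = 0.074), Hnf4a at -1.12 (adjusted p = 0.060), Ttr at -0.30 and Apoa1 at 0.03 were not called, and the summed level of the 5 was 94900 to 180000 in LEP-ICV and 161000 to 175000 in VEH-ICV. Of 7 tested periportal markers 3 fell, Sds, Hal and Pck1, the first 2 of which are also nitrogen enzymes above, and of 9 perivenous markers 2 fell, Rgn at -2.69 and Cyp1a2 at -1.08, and 1 rose, Axin2 at 0.71. The part of these cells in the falls of Otc, Ass1, Arg1, Gls2 and Rhbg was not tested. In LEP-SQ, where 41.9% of all tested probes were called against VEH-SQ, 3 of the 7 Kupffer cell markers rose (summed level 5760 to 7080 against 2770 to 5040), 0 of 5 lipid-laden macrophage markers changed and 3 of 5 hepatocyte markers fell, none of which passed with the class term. In LEP-ICVN against VEH-ICV none of these markers was called.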

How the data were processed

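Liver RNA of 26 mice was labelled and read on 1-colour Illumina MouseRef-8 v2.0 arrays, 1 per mouse. Per the file headers and labels, the deposited intensities came from BeadStudio 2.0 without normalization. The column deposited beside each intensity as a detection p-value rose with signal, so 1 minus it was used as the p. The authors' log2 values (variance stabilised and robust spline normalized in lumi) served as an alternative and as the source of names for 19 probes that the annotation left unnamed, matched within 0.001. Chip positions and scan dates are not given in the sources used here. Intensities were corrected and quantile normalized with neqc (limma 3.58.1, R 4.3.3, offset 16), and probes with p under 0.01 on at least 4 arrays (11001) were fitted in 1 limma model of the 6 groups, with Benjamini-Hochberg adjustment over all of them and a threshold of 0.05. A gene was read from its brightest tested probe. Background classes were set at the largest gap in the median intensity of probes with p over 0.5. Fold changes are 2 to the power of the log2 change, and the number of arrays limits precision. The fit was tested on simulated data. Groups came from the labels, each mouse being a replicate. Separate mice were used in each group. The study housed its ob/ob mice 2 per cage, but which mice shared a cage is not given, nor are litters. The members, the related lists and the background class split were chosen with earlier results of these data known. Named were all members, the 2 genes most alike to each, and up to 4 called genes with the largest change per list and comparison, while the cell markers named were chosen after their values were seen. Alternatives were the class term, single classes, the authors' log2 values, median scaling, uncorrected intensities, other filters, only the groups compared, array weights, the mean of a gene's probes and leaving out each mouse. Promoters were read from RefSeq (GRCm38.p6). Figures were drawn with matplotlib 3.10.9 (Python 3.11.15).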

Additional observations from a re-analysis of the deposited data

Results flagged for a closer look

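VEH-SQ mouse 2 stood apart from the other 3 mice of its group for 3 of the tested probes. Otc was at 9.54 in it and at 10.21 to 10.28 in the others, the gap being 0.905 of the range of the group, past the 95% critical value of Dixon's test for 4 samples. Arg1 was at 14.16 against 14.81 to 14.88 (0.903). The second Asl probe was at 5.06 against 6.94 to 7.06 (0.94). Its array had 6786 detected probes, the fewest of the 26, and chance gives such a mark in about 1 of 20 of the 66 probe and group pairs examined.

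The effects of the 2 routes differed for 2 genes of the related lists, both with the larger fall under brain leptin. For Prodh the difference was -1.98 (adjusted p = 0.042, limma), with the class term -1.96 (adjusted p = 0.066). For Hal it was -2.33 (adjusted p = 0.036), with the class term -2.41 (adjusted p = 0.049).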

How the results depend on the processing

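Of the 8 genes, the number called in LEP-SQ against VEH-SQ (4) became 0 with the class term and 8 with array weights, and lay between 2 and 4 with 1 mouse left out. In LEP-ICV against VEH-ICV (5) it was 3 over low-class arrays. For the difference between routes (0) it was 1 without background correction, with detection on at least 13 arrays or with the mean of a gene's probes, 5 with array weights, and 0 to 4 with 1 mouse left out. In LEP-ICV against LEP-SQ (6) it was 2 with only the groups compared. In LEP-ICVN against VEH-ICV (0) it was 5 with array weights and 0 to 3 with 1 mouse left out. In LEP-ICV against LEP-ICVN (4) it was 0 with only the groups compared or over low-class arrays and 7 with array weights. In ob/ob against B6 (6) it was 2 with the class term. The class term turned Cps1 (-0.74) and Asl (-0.26) in LEP-SQ against VEH-SQ, Glul in the route difference (-0.46) and in LEP-ICV against LEP-SQ (-0.28, and -0.16 over high-class arrays), and Cps1 in LEP-ICVN against VEH-ICV (-0.35). Over low-class arrays LEP-ICVN against VEH-ICV turned for Cps1 (-0.79), Asl (-0.33) and Gls2 (-0.13), and LEP-ICV against LEP-ICVN for Glul (-0.13). Median scaling moved the median of all probes by 0.62 in LEP-SQ and 0.49 in LEP-ICV against vehicle, 0.36 in LEP-ICVN against VEH-ICV and -0.74 in ob/ob against B6. It turned Otc in LEP-SQ (0.42) and LEP-ICVN (0.08), Asl in LEP-ICV (0.25) and, in ob/ob against B6, Ass1 (-0.19) and Gls2 (-0.47), and relative to that median these were -0.20, -0.28, -0.24, 0.55 and 0.27. With it 3669 probes rose and 481 fell in LEP-SQ (main 2426 and 2183), 1835 and 353 in LEP-ICV (1378 and 1201), 358 and 146 in LEP-ICV against LEP-ICVN (462 and 335) and 1405 and 6149 in ob/ob (3592 and 3992). Array weights turned Ass1 in LEP-ICVN (0.09), and in ob/ob the authors' log2 values turned Ass1 (-0.09) and the mean of probes Gls2 (-0.20). With 1 mouse left out, changes that turned ranged from -0.73 to 0.37 (Asl, LEP-ICV against VEH-ICV), -0.16 to 1.02 (Glul, routes), -0.32 to 0.03 (Ass1) and -0.07 to 0.31 (Gls2) in LEP-ICVN against VEH-ICV, -0.55 to 0.66 (Glul, LEP-ICV against LEP-ICVN), and -0.01 to 0.06 (Ass1) and -0.01 to 0.14 (Gls2) in ob/ob against B6, none of them called. Of the calls on single genes, 217 held and 19 were lost over the fits with 1 mouse left out, and 208 held, 35 were lost and 1 turned under the others. Probes called over the array moved by over 1.5 times from 4609 to 27 (class term) and 7896 (array weights) in LEP-SQ, from 2579 to 1253 (class term), 652 (only the groups compared), 527 (low class) and 4426 (array weights) in LEP-ICV against VEH-ICV, from 162 to 24 (median scaling), 106 (only the groups compared) and 1991 (array weights) for the routes, from 1635 to 575, 607, 373 and 3995 (class term, median scaling, only the groups compared, array weights) and 738 (high class) in LEP-ICV against LEP-SQ, from 0 to 3 (authors' log2 values) and 8193 (array weights) in LEP-ICVN against VEH-ICV, from 797 to 504, 19, 24 and 4021 (median scaling, only the groups compared, low class, array weights) in LEP-ICV against LEP-ICVN, and from 7584 to 859 (class term) in ob/ob. Leaving out 1 mouse gave 1504 (without LEP-ICV mouse 3) to 3821 (without LEP-ICV mouse 1) in LEP-ICV against VEH-ICV, 0 to 2686 (without LEP-ICVN mouse 4) in LEP-ICVN against VEH-ICV, 59 (without LEP-ICV mouse 2) to 565 (without LEP-ICV mouse 3) for the routes, 746 (without LEP-ICV mouse 2) to 4350 (without LEP-ICV mouse 3) in LEP-ICV against LEP-SQ and 471 (without LEP-ICV mouse 2) to 1178 (without LEP-ICV mouse 1) in LEP-ICV against LEP-ICVN. Apart from what the class term and the smaller numbers of arrays remove by construction, the cause was not tested. Asl lay near background on many arrays, which limits its values. Rhbg was detected on every array but ran against the number of detected probes, which limits its values too.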
